A study of Homo sapiens with 12 samples.

Results

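The m6A landscape of Kasumi-1 cells after WTAP knockdown was described from the 35851 peaks that the authors listed for RNA bound by an anti-m6A antibody (immunoprecipitate, IP) over input RNA. All of them were taken, of 71192 peaks in the knockdown and control lists together. They carried 16753 gene identifiers, and 15136 of these genes had an expression value in the table of 27411 genes. Kasumi-1 is a human acute myeloid leukaemia cell line with the t(8;21) translocation. Cells of the knockdown group, shWTAP, had received a lentivirus with an shRNA (short hairpin RNA) that targets WTAP, and control cells one with a scramble shRNA. Cells of both groups had been selected in puromycin (2 µg/ml) from 48 h after the virus was added and for at least 24 h. Each group gave 3 input and 3 IP libraries of poly(A) RNA, 12 in all, which the labels call biological replicates. The list joins the 3 shWTAP IP and 3 shWTAP input libraries, so no peak has a replicate value. The sources used here do not give the shRNA sequence or say whether the cells were a clone.

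N6-methyladenosine (m6A) is the most common internal mark of mRNA. A complex of METTL3, its catalytic subunit, and METTL14 deposits it, and WTAP holds this complex in nuclear speckles together with VIRMA, ZC3H13, RBM15 and CBLL1. In mammalian mRNA the mark is concentrated near stop codons, in 3' untranslated regions (UTRs) and in long internal exons, and YTH-domain proteins that bind it are known to speed mRNA decay or to act in splicing and translation. Antibodies to m6A also bind N6,2'-O-dimethyladenosine, a mark of the first transcribed base of an mRNA when that base is an adenosine, which PCIF1 writes. Peaks at gene starts therefore do not separate the 2 marks.

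The shWTAP input libraries listed 11274 to 11328 genes at 1 FPKM or more (fragments scaled to transcript length and library total), and their sequencing depth is unknown. WTAP itself stood at 6.97, 6.49 and 5.69 FPKM in the shWTAP libraries and at 11.5, 11.2 and 11.7 FPKM in the controls, so the knockdown was partial. The groups did not overlap (6.38 ± 0.644 and 11.5 ± 0.234 FPKM, SD, n = 3 each; limma adjusted p = 0.00663). The cells kept the markers of a myeloid blast, of which 9 of 10 reached 1 FPKM, led by MPO at 1526 FPKM, while 0 of 5 stromal markers did. Among markers of other lineages 1 of 5 T lymphoid (CD3D, 53.1 FPKM) and 1 of 5 epithelial markers (EPCAM, 42.5 FPKM) reached 1 FPKM. So did 3 of the 4 B lymphoid markers with a value, led by CD79B at 9.06 FPKM. Of the 2 erythroid markers with a value 1 did (EPOR, 2.30 FPKM). Summed over the blast markers, shWTAP inputs held 2416 to 2470 FPKM and control inputs 2203 to 2253 FPKM, and the part of this in later results was not tested. Library shWTAP 1 stood apart from the other shWTAP libraries, with 0.631% of its FPKM on mitochondrial mRNA against 0.300% and 0.333%. Control 3 had a similar share (0.634%), while controls 1 and 2 had 0.306% and 0.310%. On the first principal component of the inputs shWTAP 1 scored -4.51. The controls scored -15.2 to -8.49, shWTAP 2 scored 20.6 and shWTAP 3 scored 19.1.

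The 3 highest peaks of the list lay over gene starts, and the sequence around the annotated start is shown for 4 of the 5 genes named for high 5' UTR peaks, where the start table held a window. Each run gives 10 bases before and 20 bases from the RefSeq start (build GRCh38.p14), 5' to 3' on the gene's strand, with the annotated first transcribed base in capitals.
DHX36: aagtgggcgcAcagtggcttccgggcccgg
SENP3: ttcgccgggtGtgacgtactaatcgtgcgc
GNB1: ggctgcgggcAggggcccgccgcgcccatc
CNOT6: ctcgctggctGagggacggcggccgccgcc
The windows are chr3:154324468-154324497 (minus strand) for DHX36, chr17:7561909-7561938 (plus) for SENP3, chr1:1891068-1891097 (minus) for GNB1 and chr5:180494369-180494398 (plus) for CNOT6. Of these genes, 2 start with an A and 2 with a G in the annotation. A start in an annotation is not a start measured in these cells.

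Fold enrichment, which the authors computed per peak as IP over input, ranged from 1.08 to 935 with a median of 6.75 and quartiles of 3.30 and 11.6. It is used here only to rank and describe peaks within the list. A peak covered 361 exonic bases at the median (quartiles 181 and 718, range 57 to 7153), and 14026 peaks (39.1%) joined blocks across introns. Enrichment reached 2-fold in 32713 peaks (91.2%), 10-fold in 11026 (30.8%) and 50-fold in 469 (1.31%). The authors' false discovery rate (FDR) was at or below a log10 of -2 in 28165 peaks (78.6%), and 4305 peaks (12.0%) had an FDR that was not under 0.05.

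Some fold values recurred many times. The 10 most frequent, from 3.86 to 12.5, were spaced 0.90 to 1 apart and together held 7794 peaks (21.7%). These peaks lay in genes with a median input level of 0.442 FPKM, against 2.93 FPKM for the other peaks, and 41.6% of them reached the FDR limit against 88.8% of the others. The commonest value, 6.75, occurred in 1522 peaks. Peaks that share 1 of these values cannot be ranked among each other. Genes named below for their enrichment, other than members of a gene group, were held to limits. These were a log10 FDR of -2 or below and a mean shWTAP input of at least 5 FPKM. The FDR limit did not remove all recurring values, since every peak at 11.6 and at 12.5 reached it. Tied values also remained among the named peaks, as at 77.2-fold in HCG11, MXI1 and NORAD.

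Peaks in 3' UTRs were the largest class. They numbered 16587 (46.3%, 95% Wilson interval 45.8 to 46.8), in 9929 genes. Exon peaks numbered 12642 (35.3%, 34.8 to 35.8) in 8094 genes, and 5' UTR peaks 6622 (18.5%, 18.1 to 18.9) in 5320 genes. The intervals cover counting error only. The classes differed little in median fold (6.43 in the 5' UTR, 6.75 in exons and 6.43 in the 3' UTR) and more in length and shape. 3' UTR peaks covered a median of 450 bases, exon peaks 330 and 5' UTR peaks 300, and 54.1% of 5' UTR peaks crossed an intron against 37.2% of 3' UTR peaks and 33.9% of exon peaks.

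The classes also came from genes of different input level. Exon peaks belonged to genes with a median of 0.662 FPKM, and 40.2% of them to a gene at 1 FPKM or more. For 3' UTR peaks the median was 2.86 FPKM and the share 63.0%, and for 5' UTR peaks 4.71 FPKM and 80.5%. Among the 20863 peaks of genes at 1 FPKM or more, 10449 lay in the 3' UTR (50.1%), 5330 in the 5' UTR (25.5%) and 5084 in exons (24.4%), so the order of the last 2 classes turned with this limit. Their median folds there were 5.49, 5.79 and 4.96. Peaks at 50-fold or more had a median exonic length of 1020 bases, and 54.4% of them crossed an intron. By class 49.9% of them were 3' UTR peaks, near the 46.3% of all peaks. The 5' UTR held 26.9% against 18.5% of all peaks, and exons 23.2% against 35.3%.

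**Figure D1:**
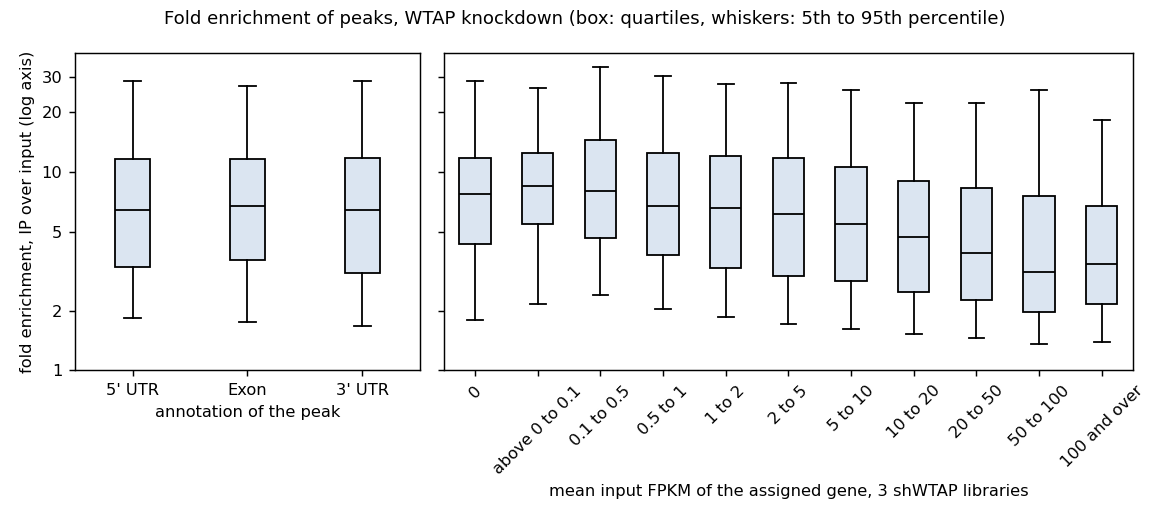
Fold enrichment of the shWTAP peaks on a log axis, by annotation class on the left and by mean input FPKM of the assigned gene on the right. Boxes are quartiles with the median, and whiskers run from the 5th to the 95th percentile. The 3 classes have medians of 6.43 to 6.75, while the medians by input level fall from 8.48 in genes above 0 and up to 0.1 FPKM to 3.13 and 3.43 in the 2 highest bins.

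Positions along the gene matched the class names only in part. On a scale from 0 at the start of the listed gene span to 1 at its end, the midpoint of 5' UTR peaks had a median of 0.050 and 60.2% of them were below 0.1. For 3' UTR peaks the median was 0.886 with 47.5% at 0.9 or above, and for exon peaks 0.502. These values hold for peaks whose midpoint lay inside the span, which was so for 96.7% of 5' UTR, 88.8% of exon and 79.3% 79.3% of 3' UTR peaks with a listed gene. A class below is the label of the list. The 3' UTR peaks of BCL2, DNMT1, ASH1L and RBM15 described below had their midpoints at 0.0074, 0.073, 0.18 and 0.24 on this scale.

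**Figure D2:**
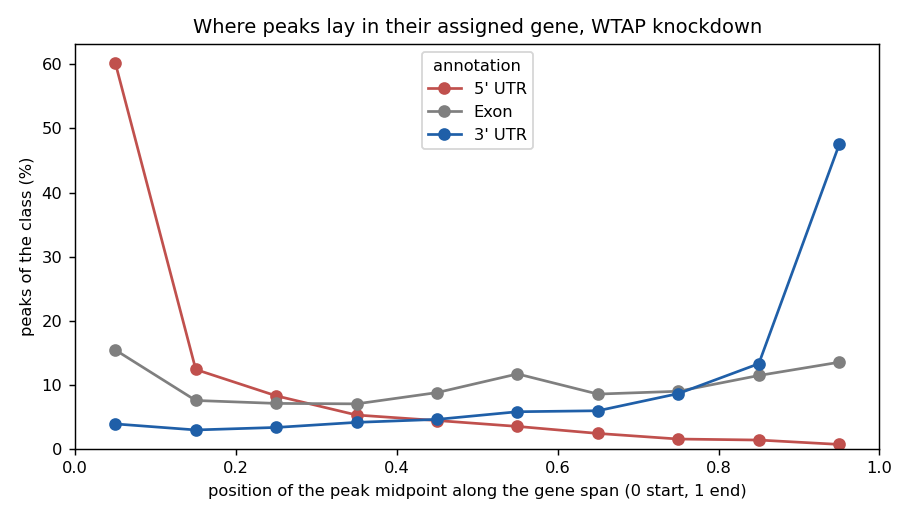
Share of peaks of each annotation class (y axis, percent) in 10 equal bins of the assigned gene's span from start to end (x axis), for peaks with a midpoint inside the span. 5' UTR peaks gather in the first bin (60.2%), 3' UTR peaks in the last (47.5%), and exon peaks spread across the gene.

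Gene assignment was ambiguous for a part of the list. No exonic base of the peak lay inside the span of its assigned gene for 3836 of 33475 peaks (11.5%), among them 2876 3' UTR peaks (18.6% of that class), 913 exon peaks and 47 5' UTR peaks. For genes at 1 FPKM or more the number was 1459 of 20863 (6.99%). In 2629 exon peaks the annotation named an exon of another gene than the one assigned, and 7774 peaks (21.7%) overlapped a further peak of the same list. Of the 14988 peaks assigned to a gene under 1 FPKM or without a value, 37.6% lay in the span of another gene at 1 FPKM or more, against 18.3% of the other peaks. Whether those peaks stem from the other gene was not tested.

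The highest 5' UTR peaks covered the first exons of genes of moderate input. DHX36, a helicase that unwinds G-quadruplexes, was at 8.61, 7.07 and 7.22 FPKM in the 3 shWTAP inputs, and its peak of 900 exonic bases in 4 blocks (chr3:154315024-154324487) had the highest enrichment of the list, 935-fold. SENP3, a nucleolar SUMO protease, was at 8.16, 10.8 and 9.56 FPKM and had a 657-fold peak (chr17:7561919-7563380). GNB1, a G protein beta subunit, was at 46.1, 46.7 and 44.2 FPKM, with a 652-fold peak in 5 blocks (chr1:1832274-1891117). GNB1 was thus the most abundant of the 3, and none of the 3 passed the limma threshold between the input groups. CAPNS1, the small subunit of calpain proteases, carried a 387-fold peak and was lower in shWTAP, at 26.6, 26.4 and 22.7 FPKM against 34.3, 34.6 and 31.9 FPKM (log2 change -0.40, SE 0.08, limma adjusted p = 0.0441). CNOT6, a deadenylase of the CCR4-NOT complex, carried a 382-fold peak at 16.3, 13.1 and 14.1 FPKM. MORF4L1, at a mean of 47.8 FPKM, had a 5' UTR peak of the same 382-fold, so the fifth place among the genes named was a tie. The call of CAPNS1 was lost without any single library other than shWTAP 1 (adjusted p of 0.0850 to 0.181). All 5 of the peaks described peaks overlapped a control peak.

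Exon peaks reached lower values among the genes past the limits above, at least 5 FPKM among them. Without these limits the highest exon peak was 484-fold, both in the whole list and among genes at 1 FPKM or more. ADO, a cysteamine dioxygenase, had a 104-fold peak of 180 bases, of which 88.3% lay inside the gene's span. MYO1G, a myosin of blood cells, had a 100-fold peak of 1829 bases, and TRA2A, a splicing regulator, an 83.5-fold peak at 29.9, 23.1 and 24.8 FPKM. The noncoding RNAs NEAT1, the scaffold of paraspeckles, and HCG11 followed with 80.8-fold (2603 bases) and 77.2-fold (1380 bases). All 5 peaks overlapped a control peak.

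The highest 3' UTR peak of the whole list was 423-fold. Among genes past the limits above the highest belonged to ERF, a transcriptional repressor of the ETS family, at 346-fold over 1380 bases (chr19:42247569-42248948). Its input was 10.2, 13.2 and 12.2 FPKM, and 5 peaks were assigned to it. HEXIM1, an inhibitor of the elongation factor P-TEFb, had a 215-fold peak over 2157 bases at 15.9, 15.8 and 15.0 FPKM. PARVG, an actin-binding parvin of blood cells, followed at 182-fold, PHF23 at 138-fold and ADAM15, a membrane metalloprotease, at 128-fold. These 5 peaks also overlapped a control peak, and the 5 genes had shWTAP input means of 7.22 to 15.6 FPKM. The peaks of HEXIM1 and PHF23, which the list classes as 3' UTR, reached the first base of the gene span. Their midpoints lay at 0.30 and 0.48 on the scale from start to end of the gene.

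Of 11322 genes with a mean shWTAP input of at least 1 FPKM, 8727 had a peak (77.1%, exact 95% interval 76.3 to 77.9). The share was 17.3% in genes listed at 0 and 32.3% in genes up to 0.1 FPKM, reached 79.2% at 5 to 10 FPKM and fell to 74.1% at 20 to 50 FPKM. Above 100 FPKM it was 55.1% (130 of 236 genes, 48.5 to 61.5). In protein-coding genes alone it fell from 85.9% at 1 to 2 FPKM to 58.2% at 100 FPKM or more. Protein-coding genes with a span under 10 kb fell from 87.0% at 2 to 20 FPKM to 55.1% at 100 FPKM or more. Longer protein-coding genes fell from 81.2% to 62.2%, so the lower share of the most abundant genes was present in both length groups. The class of the peaks moved with the level as well, since 5' UTR peaks made up 19.1% of peaks at 1 to 2 FPKM and 33.1% at 100 FPKM or more.

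**Figure D3:**
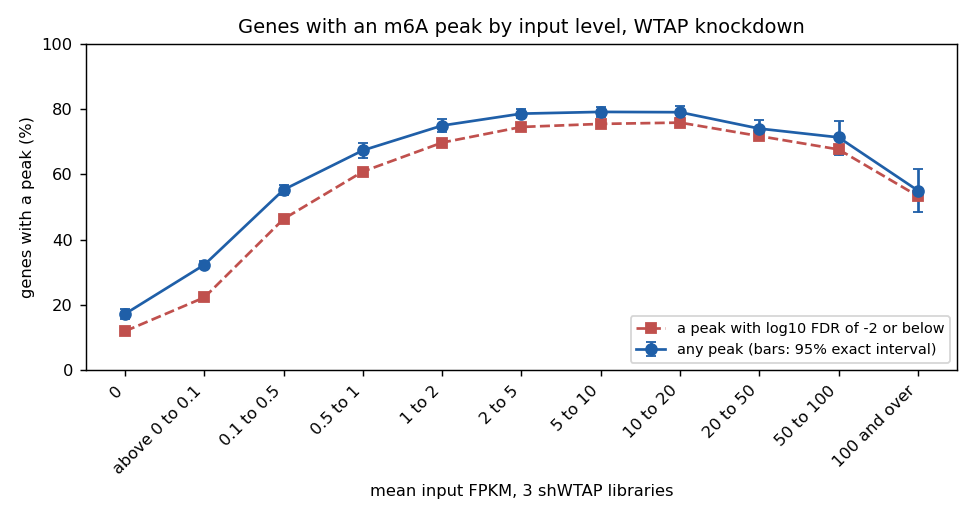
Percent of genes with an m6A peak (y axis) by mean input FPKM of the 3 shWTAP libraries (x axis), for any peak with exact 95% intervals and for peaks with a log10 FDR of -2 or below. Both curves rise to a plateau near 79% and 76% and drop in the genes at 100 FPKM or more, to 55.1% for any peak.

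Among the expressed genes, 3147 carried 1 peak, 2459 carried 2, 1475 carried 3 and 428 carried 6 or more. The highest number was 31, in LINC00662, a noncoding RNA at 1.51, 0.945 and 1.10 FPKM. SPG7, a mitochondrial protease, followed with 20 peaks, then GARS1-DT, a divergent transcript, with 17, and DNHD1, of the dynein heavy chain family, with 15. These 4 genes were at 1.19 to 1.90 FPKM at the mean. KMT2A, a histone H3K4 methyltransferase rearranged in other leukaemias, also carried 15 peaks, at 11.9 ± 1.31 FPKM (SD, n = 3), and its best peak was 6.19-fold.

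The most abundant transcripts with a peak were EEF1A1, MPO, RPL41, EEF2 and RPL19. EEF1A1, the translation elongation factor that delivers tRNA, was at 2620, 2403 and 2404 FPKM, with 3 peaks, the best at 10.6-fold and a log10 FDR of -1.81. MPO, the peroxidase of myeloid granules, was at 1481, 1550 and 1546 FPKM and had 1 peak, 3.29-fold over 449 bases in the 3' UTR class (chr17:58269855-58270303). EEF2, the translocase of translation elongation, had 1 peak of 7.21-fold at 872.2, 929.5 and 932.6 FPKM. All 5 best peaks overlapped a control peak.

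Other transcripts of similar abundance had none. GAPDH, a glycolytic enzyme, stood at 1153, 1084 and 1100 FPKM, and the ribosomal protein genes RPL7A and RPS2 at means of 841.1 and 804.3 FPKM. No peak block of either list lay inside the spans of these 3 genes. EEF1G, another elongation factor subunit, was at a mean of 957.7 FPKM without an assigned peak, yet 2 blocks assigned to AHNAK lay inside its span, and the control list assigned 2 peaks to EEF1G. KIT, the stem cell factor receptor and a marker of these blasts, was at 855.6, 745.4 and 775.3 FPKM (792.1 ± 57.0, SD, n = 3), and no block of either list lay in its span.

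By the type of gene, 7721 of 9496 expressed protein-coding genes (81.3%) had a peak, as did 184 of 244 long noncoding RNAs (75.4%, 69.5 to 80.7) and 125 of 176 transcribed pseudogenes (71.0%). Other pseudogenes carried one in 102 of 343 cases (29.7%, 24.9 to 34.9). Types come from RefSeq by symbol, and 947 genes without a match stood at 59.2%. Zinc finger genes named ZNF had a peak in 107 of 119 expressed cases on chromosome 19 (89.9%) and in 157 of 173 elsewhere (90.8%), with median best folds of 13.4 and 13.5 against 9.62 over all expressed genes with a peak. Chromosome 19 without them stood at 83.2%. ZNF genes are near-identical in part of their sequence, and reads may be split between them.

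Among the genes whose proteins write m6A, peaks were listed in 11 of 12 expressed, and METTL5, an rRNA methyltransferase, was without one. WTAP had 1 peak, 2.29-fold over 181 bases in the 5' UTR class (chr6:159727555-159736289). METTL3 had 1 peak of 4.39-fold in the 5' UTR, at 7.65, 8.76 and 8.74 FPKM, and METTL14 1 peak of 7.85-fold over 1650 bases in the 3' UTR class, at 5.83, 4.36 and 4.99 FPKM. RBM15, which guides the complex to RNA, had the strongest peak of the group, 110-fold over 3892 bases that the list classes as 3' UTR but that begin at the first base of the gene span. Its input was 5.37, 4.56 and 4.67 FPKM against 6.73, 6.50 and 7.10 FPKM in the control, without overlap (log2 change -0.41, limma adjusted p = 0.0397), a call that was lost without any single library other than shWTAP 1 (adjusted p of 0.105 to 0.167). METTL16, which methylates MAT2A mRNA and U6 RNA, followed at 18.5-fold and RBM15B at 15.5-fold. The 17.8-fold peak assigned to CBLL1 had 12.1% of its bases inside that gene.

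Of 15 expressed readers and erasers, 14 had a peak, and HNRNPC had none. IGF2BP3, an mRNA-stabilising reader, reached 35.2-fold, and the YTH reader YTHDF3 reached 30.4-fold at 9.03, 7.76 and 8.00 FPKM. YTHDF2, a reader known for promoting mRNA decay, reached 13.9-fold and IGF2BP2 11.4-fold. For ALKBH5, a demethylase, the best peak (9.65-fold) lay outside the gene's span. Of transcripts with m6A sites known from other cells, 12 of 14 had a peak (57.2 to 98.2, which also includes 77.1%). MAT2A, the SAM synthetase subunit, was among them, with an 18.2-fold 3' UTR peak at 172.9, 151.6 and 144.5 FPKM. JUNB and TTC5 had none.

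Transcription factors of the myeloid lineage and of leukaemia had a peak in 16 of 19 expressed genes, and ERG, IKZF1 and RUNX3 had none. TAL1, a regulator of blood stem cells, reached 52.8-fold in the 3' UTR at 7.42, 7.26 and 6.99 FPKM. CBFB, the partner of RUNX proteins, reached 27.0-fold in the 5' UTR and RUNX2 27.0-fold in the 3' UTR, and FLI1, an ETS factor, 19.4-fold. RUNX1T1, the fusion partner of RUNX1 in the t(8;21) translocation, was at 16.4, 13.5 and 14.5 FPKM and had 3 peaks, the strongest 13.5-fold over 1379 bases in the 3' UTR class. The 12.4-fold peak assigned to SPI1 lay outside that gene's span. All 6 expressed CEBP genes had a peak (54.1 to 100, which also includes 77.1%). CEBPE, a factor of late granulocyte maturation, reached 60.7-fold and CEBPA, a driver of granulocyte fate, 57.9-fold. CEBPE was at 6.98, 8.52 and 8.38 FPKM and CEBPA at 2.94, 4.78 and 3.68 FPKM.

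MYC and its partners had a peak in 9 of 10 expressed genes. MYC was at 114.8, 120.7 and 113.2 FPKM with 6 peaks. The highest of them, 15.4-fold, had 18.5% of its bases inside the MYC span, and those that lay within it were 4 peaks of the 5' UTR at 1.24- to 2.75-fold and 1 of the 3' UTR at 4.34-fold with a log10 FDR of -0.88. MXI1, an antagonist of MYC, reached 77.2-fold, and MLXIP, a glucose-responsive member of the network, 25.9-fold.

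The listed chromatin enzymes that add or remove methyl groups on histones all carried a peak, 29 of 29 expressed genes with 132 peaks, against 77.1% of all expressed genes. At the FDR limit 27 of the 29 had one (93.1%), against 73.3% of all expressed genes. KDM3B reached 36.7-fold in the 5' UTR, ASH1L 23.5-fold in the 3' UTR class over 3294 bases, and NSD1 20.1-fold. KDM4B, an H3K9 demethylase, was at 4.53, 5.71 and 6.21 FPKM with 10 peaks. Its strongest, 18.6-fold, lay outside the gene's span, and the next were 11.6-fold and 10.6-fold 3' UTR peaks inside it. The median best fold of the histone enzymes was 10.6 against 9.62 over all expressed genes with a peak. Of 10 genes of the DNA methylation and ASXL group 8 had a peak, with DNMT1, the maintenance methyltransferase, at 51.1-fold, and TET1 and DNMT3B without one.

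Of 13 expressed cytokine receptors 11 had a peak (84.6%, exact 95% interval 54.6 to 98.1, against 77.1% of all expressed genes), and KIT and IL6ST had none. TNFRSF1A, a TNF receptor, reached 17.5-fold in the 3' UTR at 37.7, 39.3 and 37.8 FPKM. All 6 expressed SOCS genes, feedback inhibitors of cytokine signalling, had a peak, and 5 of them had one at the FDR limit. They were led by CISH at 61.3-fold over 1676 bases in the 3' UTR class and SOCS7 at 51.1-fold. Of 18 expressed immediate early genes 15 had a peak (83.3%, 58.6 to 96.4). The intervals of these groups include the share of all expressed genes, as does that of the SOCS genes (54.1 to 100). JUN, a subunit of AP-1, reached 96.5-fold over 1494 bases in the 3' UTR class at 3.58, 3.42 and 3.97 FPKM, while its relatives JUNB and FOSL1 had none. ZFP36L2, an RNA-binding protein that promotes decay, reached 27.6-fold.

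Peaks were listed in 10 of 12 BCL2 family members (exact interval 51.6 to 97.9) and in 12 of 14 genes of p53 and its targets (57.2 to 98.2), and both intervals include 77.1%. BCL2, an inhibitor of apoptosis, reached 51.2-fold over 2845 bases at 15.7, 14.0 and 14.6 FPKM. The list classes this peak as 3' UTR, but it lay 30 bases from the start of the gene span (chr18:63317254-63320098, minus strand). The pro-apoptotic BAD and BIK had none. Among p53 targets GADD45B reached 37.2-fold and BTG1 21.6-fold. PMAIP1, a pro-apoptotic p53 target, reached 18.6-fold at 13.6, 9.69 and 6.77 FPKM.

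Metabolic groups spread on both sides of the share over all genes. Cholesterol synthesis genes had a peak in 23 of 24 cases, with INSIG2, which retains the sterol sensor SCAP in the endoplasmic reticulum, at 82.0-fold and SCAP at 51.7-fold. The ATF4 stress group had one in 16 of 19 (84.2%, 60.4 to 96.6). ATF4 itself reached 31.8-fold in the 5' UTR at 177.1, 161.0 and 146.3 FPKM, and its targets DDIT3, TRIB3 and PSPH had none. Hypoxia and glycolysis genes had one in 18 of 25 (72.0%, 50.6 to 87.9). PKM, pyruvate kinase, reached 80.1-fold in the 5' UTR and VEGFA 23.7-fold, while GAPDH, LDHA, LDHB, ARNT, BNIP3L, NDRG1 and ADM had none. HIF1A, the hypoxia-induced transcription factor, was at 25.0, 21.3 and 22.2 FPKM, with peaks of 1.63-fold and 1.25-fold only.

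Ribosomal protein and respiratory chain genes lay below the share of all expressed genes. Of 70 cytosolic ribosomal protein genes 36 had a peak (51.4%, exact 95% interval 39.2 to 63.6), with a median best fold of 4.30, at a median input of 231.1 FPKM. All genes at 100 FPKM or more stood at 55.1%, inside that interval. Nuclear genes of oxidative phosphorylation had one in 20 of 34 (58.8%, 40.7 to 75.4) with a median best fold of 3.60. Their median input was 28.4 FPKM, and all genes at 20 to 50 FPKM stood at 74.1%, inside that interval. Proteasome subunits had one in 22 of 31 (71.0%, 52.0 to 85.8, median best fold 3.04) and mitotic genes in 17 of 28 (60.7%, 40.6 to 78.5, median best fold 4.32), and these intervals include 77.1%. Without a peak in the last group were CCNB1, CCNB2, CCNA2, CDK1, CDC20, MAD2L1, BUB3, TPX2, ANLN, KIF23 and KIF2C. MKI67, the proliferation marker Ki-67, had 8 peaks with a best of 10.7-fold. S phase genes stood at 21 of 28 (55.1 to 89.3) and splicing factors at 22 of 30 (54.1 to 87.7), and both intervals include 77.1%. In the splicing group SRRM2 had 11 peaks and a best fold of 26.9, and SRSF3, SRSF4, SRSF7, SF3B1, SF3A1, HNRNPK, PTBP1 and CLK1 had none. The ribosomal protein RPL27 had a 30.1-fold peak that lay outside its span. Ribosomal protein genes have many processed pseudogene copies, and how reads were shared among them is not given in the sources used here.

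Myeloid granule genes had a peak in 9 of 13 expressed cases with a median best fold of 3.90. AZU1, azurocidin, reached 8.27-fold at 10.8, 11.8 and 13.8 FPKM, and RNASE2, a granule ribonuclease, 4.44-fold at 103.6, 82.0 and 89.7 FPKM. PRTN3, BPI, CST7 and SRGN had none. Replication-dependent histones, whose mRNAs lack a poly(A) tail, had 0 genes with a mean shWTAP input of 1 FPKM or more in these poly(A) libraries. Over the inputs of both groups, 1 of them reached 1 FPKM in at least 3 libraries.

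**Figure D4:**
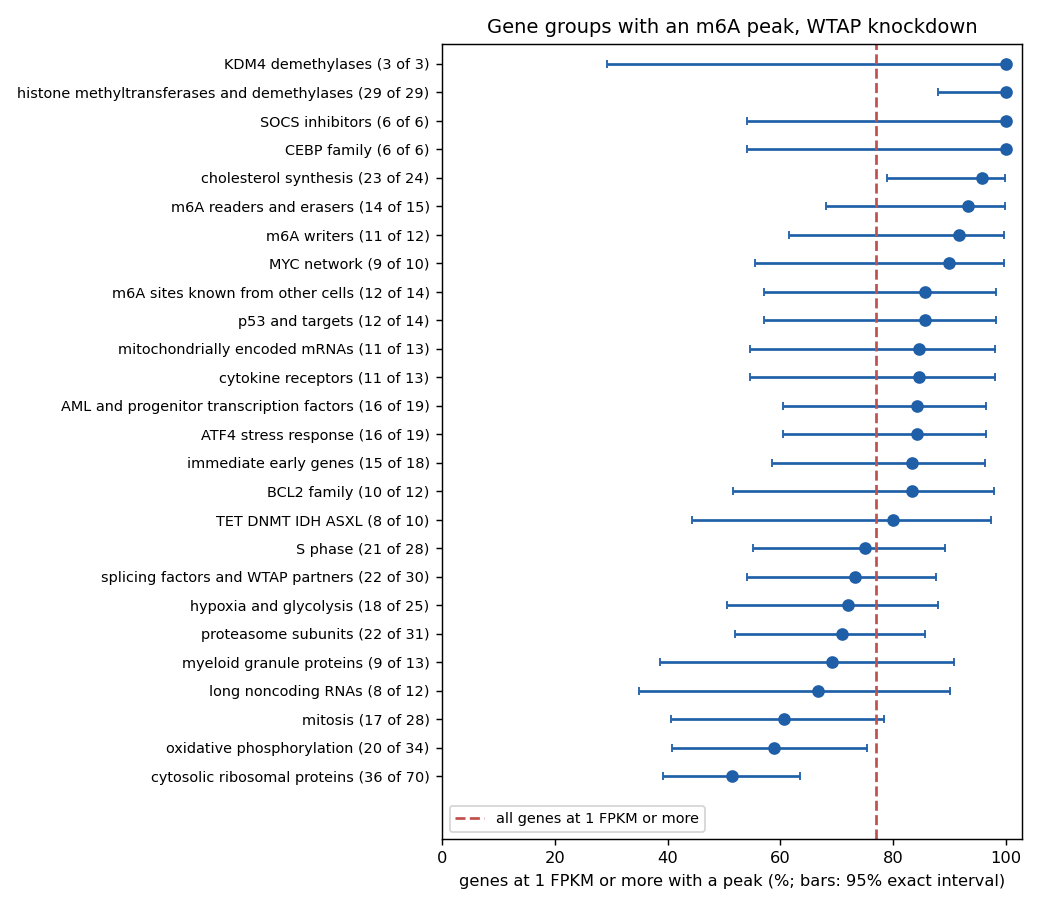
Percent of genes at 1 FPKM or more that carried a peak (x axis, with exact 95% intervals) for each gene group (y axis, with the number with a peak of the number expressed). The dashed line marks all expressed genes at 77.1%. Histone methylation enzymes lie at 29 of 29, and ribosomal protein genes, at 36 of 70, lie lowest.

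Long noncoding RNAs of the list had a peak in 8 of 12 cases, 15 of their 22 peaks in the exon class. NORAD, which sequesters Pumilio proteins, reached 77.2-fold over 1433 bases at 76.9, 61.6 and 64.4 FPKM, and TUG1 19.8-fold. MALAT1, known to carry m6A in other cells, was at 100.3, 50.7 and 60.3 FPKM with a best fold of 10.6, in a peak that no control peak overlapped. Its first value, from shWTAP 1, was the highest. GAS5 and SNHG1, hosts of small nucleolar RNAs, had none, and neither had DANCR and EPB41L4A-AS1.

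Mitochondrially encoded mRNAs carried peaks in 11 of 13 genes, all 13 peaks in the exon class. The other two, MT-ATP8 and MT-ND4L, had none assigned, but 1 peak assigned to MT-ATP6 (207 bases) and 1 assigned to MT-ND4 (297 bases) had exactly their spans, so genes that overlap on the mitochondrial genome were not told apart. The peaks covered the whole listed gene for 9 of the 11, among them MT-ND2 (10.0-fold, 1042 bases), MT-ND6 (10.7-fold, 525 bases) and MT-CYB (7.17-fold, 1141 bases). For MT-CO1, a subunit of cytochrome c oxidase, the peak was 1.23-fold and covered 7.72% of the gene, and for MT-CO3 it was 1.63-fold over 18.6%. The input of MT-ND2 was 63.6, 31.2 and 33.2 FPKM, highest in shWTAP 1, as it was for MT-CYB at 33.9, 11.6 and 13.9 FPKM. The part of that library in the peaks was not tested.

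MicroRNA hairpins lay wholly under a peak for 42 of 1560 RefSeq hairpin symbols (2.69%), and 38 of them under a peak that reached the FDR limit. The peak over MIR142 was among the strongest, and the mature RNAs of this blood-cell microRNA are shown with the seed, bases 2 to 8, in capitals.
hsa-miR-142-3p: uGUAGUGUuuccuacuuuaugga
hsa-miR-142-5p: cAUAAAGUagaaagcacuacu
The MIR142 hairpin (chr17:58331232-58331318, minus strand) sat inside a peak of 1625 bases (chr17:58330884-58332508) at 65.2-fold that was assigned to AC004687, an overlapping transcript at 7.08, 10.6 and 11.4 FPKM (9.68 ± 2.28, SD, n = 3). MIR24-1 lay under a 15.8-fold peak assigned to MIR23B, and MIR671 under a 19.4-fold peak. These libraries hold fragments of long RNA, so a peak over a hairpin describes the RNA that contains it, not the mature microRNA.

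The first base of the annotated transcript differed between groups of genes with and without a peak at their start. Over 5821 expressed genes with a single start in the RefSeq table, 44.6% began with A. Among the 1916 whose start lay under a peak the share was 51.4% (985 genes, Wilson interval 49.2 to 53.6). It was 42.2% (interval 40.4 to 44.1) in the 2749 genes with peaks elsewhere only and 39.0% (36.2 to 41.9) in the 1156 genes without a peak. At 2 to 20 FPKM the share was 51.9% with a peak at the start, 43.2% with peaks elsewhere only and 40.0% without a peak, so the order was present within 1 range of input level. The GC content of the first 50 bases was 67.1%, 67.5% and 66.8%. The letters GGACT, a common m6A context, were searched in the first 50 transcribed bases on both strands and found in 4.65%, 4.51% and 4.41% of the 3 groups on the sense strand and 5.17%, 4.91% and 4.15% on the antisense strand, against 4.57% and 5.07% of all windows in the table. The letters GAACT were in 3.03%, 1.96% and 2.51% on the sense strand (2.99% of all windows) and in 3.03%, 3.82% and 3.29% on the antisense strand (3.49%). The letters AGACT were in 2.97%, 2.87% and 2.42% on the sense strand (3.35%) and in 3.44%, 3.53% and 3.46% on the antisense strand (3.84%). A match is a description of these letters and not a site.

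Most peaks of the knockdown list had a counterpart in the control list. A control peak overlapped 29684 of the 35851 shWTAP peaks by at least 1 base (82.8%, Wilson interval 82.4 to 83.2), and a shWTAP peak overlapped 29192 of the 35341 control peaks (82.6%, 82.2 to 83.0). The share followed the authors' FDR, from 99.8% of 8929 peaks with a log10 FDR under -50 to 46.1% of 4305 peaks above -1.3. The 6167 peaks without an overlap had a median fold of 4.34 and a median length of 151 bases, 39.3% of them reached the FDR limit, and 5 reached 50-fold. The lists covered 18.0 Mb (shWTAP) and 21.6 Mb (control), with median peak lengths of 361 and 421 bases. With 1 list per condition, neither a lost nor a gained site could be tested.

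The highest peak without a control overlap, among genes past the limits above, was on XAGE1B, a cancer-testis antigen gene on chromosome X, at 86.8-fold over 531 bases. Its input was 63.8, 67.9 and 64.9 FPKM in shWTAP and 65.3, 70.2 and 63.3 FPKM in the control, and the groups overlapped. XAGE1B has a near-identical copy, and reads could be divided between the copies. SEC11A, a signal peptidase subunit, followed at 23.2-fold. AKT1, a growth-signalling kinase, and POLRMT, the mitochondrial RNA polymerase, each had a 22.2-fold exon peak, and G3BP1, a stress granule protein, a 21.2-fold peak. The last 4 had 3 or 4 peaks each and log10 FDR values of -5.19 to -4.65, against -92.9 for XAGE1B.

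Input levels of genes with a peak were compared between shWTAP and control with limma on log2(FPKM + 1). Of 8778 tested genes with a shWTAP peak, 122 were higher and 216 lower in shWTAP at an adjusted p under 0.05. Over all 11383 tested genes the share called was 3.89%, with 1.48% higher and 2.42% lower. The 338 calls made up 3.85% of the genes with a peak, near that share, and 105 of 2605 genes without a peak were called (4.03%). The median log2 change was -0.03 with a peak and -0.01 without, and -0.03 over all tested genes. By number of peaks the share called was 4.22% with 1 peak, 3.83% with 2 or 3 and 3.20% with 4 or more, and by class it was 4.23% of genes with a 5' UTR peak, 3.32% with an exon peak and 3.71% with a 3' UTR peak. Of 514 genes whose peaks all lacked a control overlap, 24 were called (4.67%). In bulk RNA, fewer cells of a type and less RNA per cell cannot be told apart. The number of calls rested on the libraries. It was 2094 without shWTAP 1 (24.1% of the peak genes tested, 24.3% of all) and 24 to 56 without any other single library.

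Among genes with a peak the largest fall was that of MYDGF, a secreted growth factor, at 9.76, 9.54 and 8.04 FPKM in shWTAP and 32.9, 30.8 and 29.3 FPKM in the control (log2 change -1.66, SE 0.09, limma adjusted p = 0.000455). It had 2 peaks, the better 3.34-fold over 180 bases in the 5' UTR class. NEK7, a kinase of the NEK family, was at 4.24, 2.98 and 3.05 FPKM against 10.1, 9.52 and 11.5 FPKM, with a 2.00-fold 3' UTR peak. GYS1, muscle-type glycogen synthase, was at 10.4, 11.5 and 11.3 FPKM against 22.9, 23.5 and 23.5 FPKM, with a 1.88-fold 5' UTR peak. In these 3 genes every shWTAP value lay below every control value, which the choice of the genes required. The peaks were below the list's first quartile of 3.30-fold in 2 of them. JMJD8 and PHACTR4 fell by 1.05 and 1.02 on the log2 scale (limma adjusted p = 0.0183 and 0.0134). The 11.3-fold 5' UTR peak of PHACTR4, a regulator of actin and protein phosphatase 1, had no control overlap.

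The largest rise was listed for PIK3R2, a regulatory subunit of phosphoinositide 3-kinase, at 4.67, 5.54 and 5.76 FPKM in shWTAP and 0.084, 0.070 and 0.060 FPKM in the control. It passed the limit on low values only through the shWTAP libraries and so had to differ. Another listed gene on the same strand overlaps PIK3R2, so its counting is uncertain. CEACAM6, a surface glycoprotein of granulocytes, was at 57.4, 63.7 and 67.1 FPKM against 22.3, 23.1 and 23.8 FPKM (log2 change 1.40, SE 0.08, limma adjusted p = 0.000455), with 3 peaks, the best 3.90-fold. S100A4, a calcium-binding protein, was at 14.1, 16.6 and 19.4 FPKM against 7.37, 8.26 and 7.02 FPKM, with a 3.00-fold 5' UTR peak. ARRDC3, an arrestin-related protein, was at 11.2, 11.4 and 12.0 FPKM against 4.45, 5.68 and 6.39 FPKM, and its 3' UTR peak was 11.4-fold over 1045 bases. CD52, a surface glycoprotein, was at 5.98, 9.59 and 7.68 FPKM against 3.70, 3.42 and 2.54 FPKM. Its best peak, 9.65-fold with a log10 FDR of -1.57, had no control overlap. The groups did not overlap in any of these 5 genes, which the choice of the genes required. Calls were lost without single libraries for JMJD8 (control 1, control 2, shWTAP 2 or shWTAP 3), PHACTR4 (any control or shWTAP 3) and CD52 (any control, shWTAP 2 or shWTAP 3). The same held for S100A4 (control 1 or control 3), ARRDC3 (shWTAP 3) and WTAP (control 1). With no filter on low values the calls of CD52, JMJD8, PHACTR4, S100A4 and ARRDC3 were lost as well (adjusted p = 0.108, 0.0933, 0.0728, 0.0591 and 0.0591).

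**Figure D5:**
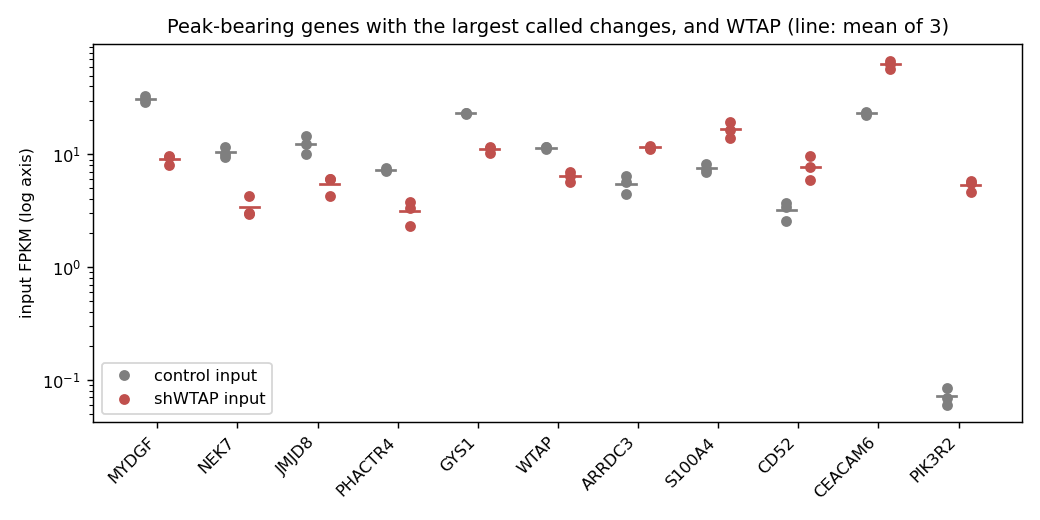
Input FPKM on a log axis of the 10 genes with a peak and the largest called changes, and of WTAP, in the 3 control (grey) and 3 shWTAP (red) libraries. Points are libraries and short lines the mean of 3. The groups do not overlap in any of the genes shown, which the choice of the 10 genes required, and WTAP lies at 5.69 to 6.97 against 11.2 to 11.7.

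Called genes in the input were also counted by gene group, beside 3.89% over all tested genes. Writers had 0 higher and 2 lower of 12 tested genes, the lower ones being WTAP and RBM15. Cholesterol synthesis genes, 23 of 24 with a peak, had 4 higher and 0 lower with a median of 0.23, and the ATF4 group, 16 of 19 with a peak, had 0 higher and 4 lower with a median of -0.23. HMGCS1, which makes a precursor of mevalonate, was at 67.0, 65.1 and 67.9 FPKM against 36.0, 39.9 and 42.4 FPKM, and carried 3 peaks with a best of 8.68-fold. TRIB3, an ATF4 target without a peak, was at 18.5, 19.5 and 17.2 FPKM against 32.3, 30.6 and 33.0 FPKM, and the groups did not overlap in either gene. Transcription factors of the myeloid lineage and of leukaemia had 0 higher and 4 lower of 19 tested, with a median of -0.16. Myeloid granule genes had 4 higher and 0 lower of 13 tested, with a median of 0.15. Histone methylation enzymes, 29 of 29 with a peak, had 0 called genes and a median of -0.04, and ribosomal protein genes 0 of 70 with a median of 0.07. Over all tested genes the median was -0.03.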

How the data were processed

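Per the labels' protocols, poly(A) RNA was fragmented, part was precipitated with an anti-m6A antibody, and libraries were made with dUTP strand marking. Tools named in the submitters' processing notes, with no version or role, are ChIPseeker, fastp, HISAT2 and HOMER. The sources used here do not give the peak caller, the genome build, the annotation or any pooling of replicates before calling. The deposited expression table held FPKM for the 6 input libraries, scaled by the authors, so depth is unknown and a change common to all RNA would not show. Each deposited peak came with the authors' ratio of IP over input (fold enrichment), and a p-value of at most 0.05. The deposited scores were log10 values, 1 of that p-value and 1 of an FDR. IP values per gene were not analysed here.

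Each peak was joined to its gene's mean FPKM over 3 shWTAP inputs. Symbols were matched to RefSeq (20187 matched, and 99.9% overlapped the RefSeq gene of that symbol in GRCh38.p14). Groups and replicate numbers came from the sample titles. Input groups were compared with limma 3.58.1 in R 4.3.3 (eBayes with trend) on log2(FPKM + 1) for genes at 1 FPKM or more in at least 3 libraries, with Benjamini-Hochberg adjustment over all tested genes; the log2 scale understates changes of low genes. The script was tested on simulated data. Exonic blocks were overlapped with bedtools 2.31.1 (at least 1 base, strand ignored). Intervals cover counting error only. Replicate numbers did not pair the libraries (correlations of deviations -0.11, 0.17 and -0.14).

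Members and gene lists were chosen with earlier results of these data known. Named genes were the 5 highest peaks of each class and of those without a control overlap, the 5 genes with most peaks, the 5 most abundant with and without a peak (1 of them is not reported here), WTAP, METTL3, METTL14, MYC, KDM4B, HIF1A, RUNX1T1 and KIT, up to 4 highest members of each list, and the 5 largest called rises and falls. Other names (members without a peak, the mitochondrial genes, the microRNA hairpins with AC004687, CAPNS1 as a called gene, MORF4L1, ALKBH5, SPI1 and the listed called members) were chosen after their values were seen.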

Additional observations from a re-analysis of the deposited data

How the results depend on the processing

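The count of called genes with a peak (338) was 510 under median centring (241 higher, 269 lower) and 521 under quantile normalization (244 higher, 277 lower), 55 without a filter on low values, and 24 to 2094 when 1 library was left out. With the replicate number as a block, which did not pair the libraries, it was 54. It was 303 to 347 under the pseudocount of 0.1, the filter at 5 FPKM and both stricter peak limits. The share of expressed genes with a peak (77.1%) was 75.8% at a floor of 0.5 FPKM, 73.3% for peaks at the FDR limit, 73.7% for peaks of 2-fold or more, and, in alternatives added after the data were seen, 81.3% for protein-coding genes and 74.6% for peaks with a base inside their gene; without single libraries it was 77.0% to 77.1%. The median fold in the 5' UTR was 5.79 for genes at 1 FPKM or more and 8.78 with 1 peak per gene; in exons it was 8.03 at the FDR limit, 4.96 and 9.65; in the 3' UTR it was 6.65, 5.49 and 10.1. The class shares at 1 FPKM or more were 25.5% (5' UTR), 24.4% (exon) and 50.1% (3' UTR); at the FDR limit exons held 31.2% and 3' UTRs 50.2%, and at 2-fold or more 3' UTRs held 45.7%. The share overlapped by a control peak was 76.6% with 0.5 of the peak's length required, 80.4% on the same strand, 91.4% at the FDR limit, 84.5% at 2-fold or more and 86.5% with the FDR limit on both lists. None of the 15 genes rerun (WTAP, the 10 largest called changes, CAPNS1, RBM15, HMGCS1 and TRIB3) changed sign; CEACAM6, GYS1, MYDGF, NEK7, HMGCS1 and TRIB3 kept their calls in 12 of 12 alternatives. With the replicate block CAPNS1, RBM15 and CD52 lost theirs (adjusted p = 0.0828, 0.101 and 0.0561), and CAPNS1 and RBM15 also with no filter on low values (0.113 and 0.10). For the shares and medians of peaks the set of peaks or genes counted differs by construction, and for the length and strand limits the matching rule does; for the counts of calls the cause was not tested. Depth is unknown, and a peak has no replicate, so weak peaks, above all those on recurring fold values, are the least certain.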
